A study of Mus musculus with 6 samples.

Results

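Eph receptors are receptor tyrosine kinases at the cell surface, and ephrins are their membrane-bound ligands on neighbouring cells. Binding signals forward into the receptor cell and in reverse into the ephrin cell, and mostly leads to repulsion or altered adhesion. In the intestine, EphB receptors are targets of Wnt signalling that are high at the crypt base, ephrin-B ligands are higher towards the villus, and these opposed gradients keep dividing, Paneth and differentiated cells in their places. The 10 genes described here were taken from the 28752 genes of the deposited expression table by their gene names. The names were chosen with earlier results of these data known. They were the receptors Ephb2, Ephb3, Ephb4, Ephb6, Epha1 and Epha2 and the ephrins Efnb1, Efnb2, Efna1 and Efna4.

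Expression was measured by RNA sequencing of oligo(dT)-selected RNA in 6 mouse samples labelled as intestinal crypt stem cells. In 3 of them, labelled WT, the cells carried the vector, and in the other 3 they overexpressed circEZH2_005, a circular RNA made from exons of the Ezh2 gene, from an adenovirus. The paper's methods describe Lgr5+ intestinal stem cells sorted from Lgr5-GFP mice, in which green fluorescent protein marks cells that express Lgr5. In these methods the sorted cells were grown in IntestiCult medium into crypt-villus organoids. For the RNA sequencing itself the paper names only intestinal crypt cells. Infection lasted 72 h, and both groups were then exposed to hypoxia/reoxygenation (H/R), with hypoxia of 4 h in 2% O2, 5% CO2 and 93% N2, so that the comparison was between vector and circEZH2_005 under H/R. The strain and age of the mice are not given in the labels, and the labels do not say whether the samples came from separate animals or cultures, so the p-values measure the spread between these samples only. Counts summed to between 71506487 and 79919893 per sample.

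The labelled cell type was compared with its markers. Lgr5, the receptor that marks crypt stem cells, was listed at 0.632 to 1.65 FPKM, a fragment count scaled to transcript length and library depth, in the 6 samples, and the stem cell gene Olfm4 at 282 to 732 FPKM. The 10 enterocyte markers looked up summed to between 7440 and 12500 FPKM and the 10 Paneth cell markers to between 3580 and 11800 FPKM, so that genes of differentiated cells were abundant in every library. The 10 T cell markers summed to 18.0, 63.2 and 23.2 FPKM with vector and to 162, 119 and 85.2 FPKM with circEZH2_005 (samples 1 to 3 of each), and the B cell and myeloid markers were listed as well. T cells, B cells and myeloid cells are not the labelled cell type, and the source of their RNA was not tested. Since these were bulk samples, fewer cells of a type and less RNA per cell cannot be told apart. Across genes, log2 CPM (counts relative to the library total, which was scaled with edgeR's TMM factors) of vector sample 2 correlated with that of the circEZH2_005 samples at 0.965 to 0.971, and that of the other vector samples at 0.951 to 0.964.

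None of the 10 genes passed the adjustment for multiple tests between circEZH2_005 and vector samples. All 10 were kept by the filter on low counts, and 0 had an adjusted p-value under 0.05 in either direction in edgeR's quasi-likelihood test, where 2.69% of the 18348 genes tested were called higher and 0.986% were called lower. At an unadjusted p-value under 0.05, 4 of the 10 genes were counted, namely Epha2, Ephb6, Ephb4 and Efna4, beside 23.7% of all genes tested. DESeq2, a second count test, called 1 of the 10 higher (Epha2) and 2 lower (Ephb4 and Efna4), beside 9.25% and 4.1% of the 17015 genes to which it gave an adjusted p-value. By a fold rule, a fold change over 2 or under 0.5 with an unadjusted p-value under 0.05, 1 of the 10 (Ephb6) was counted higher, where 6.22% of all genes were, and 0 were counted lower, where 1.34% were. No circEZH2_005 sample was below any vector sample in 2 of the 10 (Epha2 and Ephb6), beside 16.4% of all genes tested, and none was above any vector sample in 2 (Ephb4 and Efna4), beside 14.2%.

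As a group the 10 genes had a spread of fold changes close to that of all genes. The median log2 fold change was -0.05, with 4 values above 0 and 6 below, and the median over all genes tested was 0.00. The median absolute log2 fold change was 0.246 for the 10 genes and 0.25 for all genes tested.

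**Figure D1:**
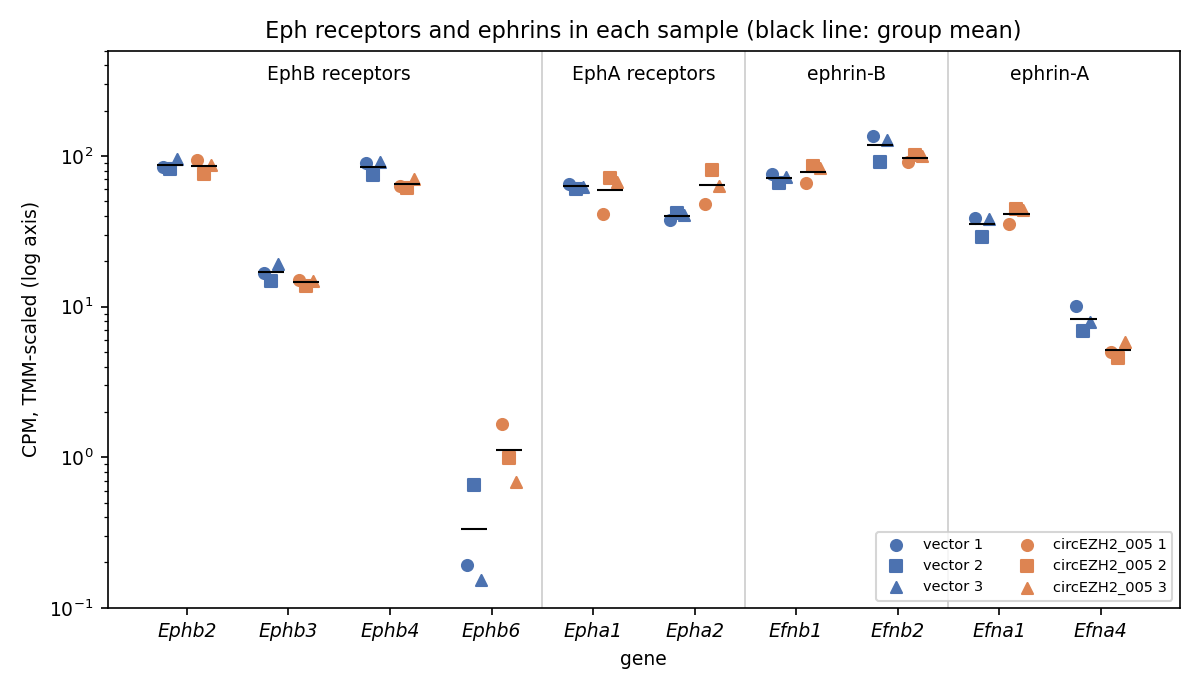
Level of each gene in each sample, in TMM-scaled CPM on a log axis, with vector samples in blue, circEZH2_005 samples in orange, a marker shape for each replicate number and a black line at each group mean. Epha2 and Ephb6 were higher in every circEZH2_005 sample than in every vector sample, Ephb4 and Efna4 were lower in every one, and the groups overlapped for the other 6 genes.

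Levels of different genes were compared in FPKM, which divides by transcript length. In vector samples the order by mean FPKM was Efnb1 (19.1 ± 1.03, SD, n = 3 here and below), Efna1 (17.8 ± 2.62), Ephb4 (16.9 ± 1.60), Efnb2 (15.9 ± 2.98) and Epha1 (14.8 ± 0.306), and the ranges of the neighbours in this order overlapped. Then followed, each clear of the range before it, Epha2 (7.92 ± 0.535), Ephb2 (6.42 ± 0.563), Efna4 (4.77 ± 0.877), Ephb3 (2.34 ± 0.304) and Ephb6 (0.0798 ± 0.0703). In circEZH2_005 samples Efnb1 (19.7 ± 1.61) and Efna1 (19.4 ± 1.33) overlapped each other and stood clear of the rest. Epha1 (13.1 ± 2.92), Efnb2 (12.4 ± 0.0562), Ephb4 (12.2 ± 0.986) and Epha2 (11.8 ± 2.46) came next, each overlapping its neighbour. Ephb2 (5.95 ± 0.967), Efna4 (2.80 ± 0.376), Ephb3 (1.9 ± 0.206) and Ephb6 (0.260 ± 0.135) kept the last 4 places in the same order as with the vector. Epha2 thus lay between Epha1 and Ephb2, away from both, in vector samples and overlapped the range of Ephb4 in circEZH2_005 samples.

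Among the EphB receptors, Ephb2 and Ephb3 are the pair known for positioning crypt cells, Ephb2 as a gene whose protein falls off from the crypt base upwards and Ephb3 as a receptor that holds Paneth cells at the base. Ephb2 (ENSMUSG00000028664, chromosome 4, 136647539 to 136835988, minus strand, GRCm38) was at 85.0, 81.5 and 96.1 CPM in vector samples 1 to 3 and at 94.1, 76.0 and 87.2 CPM in circEZH2_005 samples 1 to 3. The groups overlapped, the log2 fold change was -0.03 (standard error [SE] 0.107, edgeR adjusted p = 0.905), and the 95% interval ran from -0.28 to 0.22, so that a fold outside 0.825 to 1.16 lay beyond it. Ephb3 (ENSMUSG00000005958, chromosome 16, 21204755 to 21223304, plus strand) was at 16.6, 14.8 and 19.2 CPM with vector and at 15.1, 13.7 and 14.7 CPM with circEZH2_005. Vector sample 2 lay within the range of the circEZH2_005 samples, and the log2 fold change was -0.22 (interval -0.51 to 0.08, edgeR adjusted p = 0.36).

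Ephb4 is the receptor best known from veins, where it pairs with ephrin-B2 of arteries, and it is also made by the intestinal epithelium. Ephb4 (ENSMUSG00000029710, chromosome 5, 137350109 to 137378669, plus strand) was at 89.2, 74.7 and 90.6 CPM with vector and at 63.4, 61.6 and 70.1 CPM with circEZH2_005. Every circEZH2_005 sample lay below every vector sample, with a log2 fold change of -0.38 (SE 0.101, interval -0.62 to -0.15), but the adjusted p was 0.0737 by edgeR. Without vector sample 2, the lowest of its group, the value was -0.47 on the log2 scale and edgeR's adjusted p was 0.0259, and without any other sample the adjusted p was between 0.108 and 0.23. The 10 endothelial markers summed to 0.464 to 0.862 FPKM with vector and to 0.834 to 1.2 FPKM with circEZH2_005. Among them Pecam1 had 46 to 415 counts, Egfl7 50 to 129, Tek 38 to 107 and Vwf 10 to 70, while Kdr, Flt1, Cdh5, Tie1, Emcn and Cldn5 had at most 19 counts in any sample. Pecam1, which leukocytes also make, was at 0.0863, 0.161 and 0.182 FPKM with vector and 0.779, 0.456 and 0.346 FPKM with circEZH2_005. Mean Egfl7 went the other way, from 0.358 to 0.203 FPKM. The part of endothelial cells in the Ephb4 values was not tested. The gene Zan on the other strand overlaps Ephb4 in 33 exonic bases, or 0.711% of the exonic bases of Ephb4. It was at 13.2, 5.39 and 13.1 CPM with vector and at 6.46, 6.65 and 7.38 CPM with circEZH2_005.

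Ephb6 lacks kinase activity and is known from T cells as well as from epithelia. Ephb6 (ENSMUSG00000029869, chromosome 6, 41605482 to 41620509, plus strand) had the fewest counts of the 10 genes, 14, 49 and 12 with vector and 133, 74 and 49 with circEZH2_005. This was 0.193, 0.656 and 0.153 CPM against 1.67, 0.994 and 0.684 CPM, so that on the CPM scale vector sample 2 lay just under circEZH2_005 sample 3, while in FPKM the groups overlapped (0.161 in vector sample 2 and 0.151 in circEZH2_005 sample 3). The log2 fold change of 1.74 was the largest among the 10, with the widest interval, 0.26 to 3.21 (SE 0.635, edgeR adjusted p = 0.152). Without vector sample 2 the value was 2.68 on the log2 scale and edgeR's adjusted p was 0.0306. Leaving out any other sample gave 1.32 to 1.99, with edgeR's adjusted p from 0.166 to 0.351.

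In CPM, Ephb6 ordered the samples nearly as the summed FPKM of T cell genes did. From high to low, Ephb6 CPM ordered the samples as circEZH2_005 1, 2 and 3 and vector 2, 1 and 3. The summed FPKM of the 10 T cell markers ordered them as circEZH2_005 1, 2 and 3 and vector 2, 3 and 1. In FPKM, Ephb6 ordered the samples as circEZH2_005 1 and 2, vector 2, circEZH2_005 3, and vector 1 and 3. The summed FPKM of the B cell markers ordered them as circEZH2_005 1 and 2, vector 2, circEZH2_005 3, and vector 3 and 1. In FPKM the likeness was thus not to T cell genes alone. The order of the T cell sum was also seen outside the T cell list. C1qa and Fcer1g of the myeloid list had it in FPKM, as did Ptprc of that list, which T cells also express. The other genes of the myeloid list did not. The summed FPKM of the B cell and of the myeloid markers did not have this order either. All 10 T cell markers had an unadjusted p-value under 0.05 with log2 fold changes between 1.24 and 2.06, 0 of the 10 passed the adjustment in edgeR, and in all 10 the groups did not overlap. Ephb6 lies 57.1 kb beyond Trbc2, the last constant gene of the T cell receptor beta locus on the plus strand, and Trbc2 had a log2 fold change of 1.82 (edgeR adjusted p = 0.0674). On the other side, Trpv6, a calcium channel gene of absorptive cells on the opposite strand, ends 114 bases from the end of Ephb6. Trpv6 had counts of 39, 73 and 127 with vector and 373, 207 and 177 with circEZH2_005, a log2 fold change of 1.66 (edgeR adjusted p = 0.0742), and no source used here says that reads were counted by strand. The part of T cell RNA or of neighbouring transcripts in the Ephb6 counts was not tested.

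**Figure D2:**
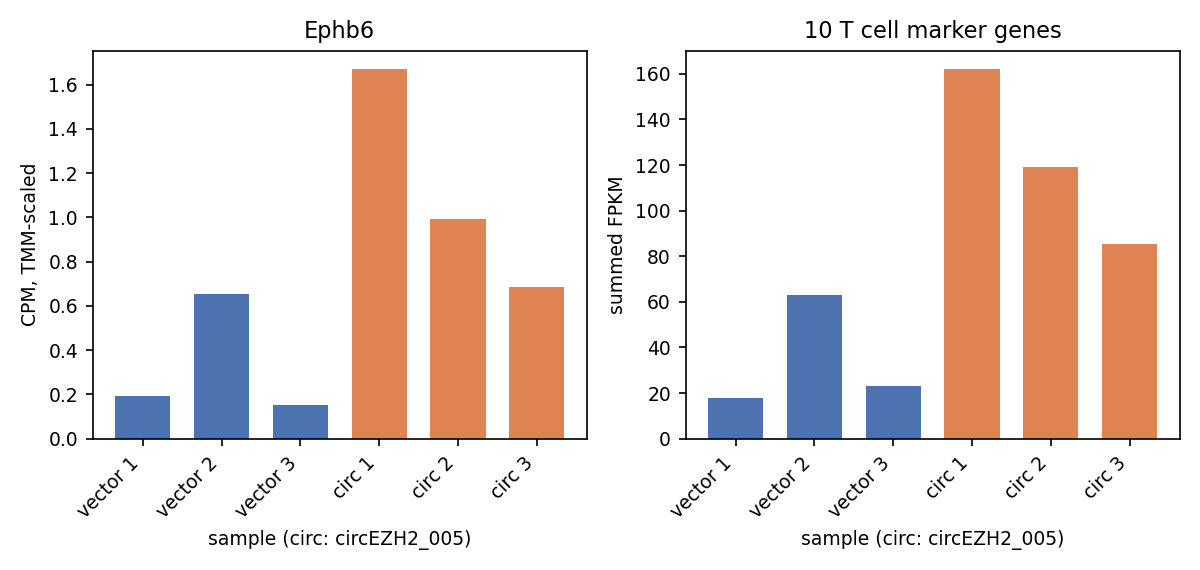
Ephb6 in TMM-scaled CPM (left) and the summed FPKM of 10 T cell marker genes (right) in each sample, with vector samples in blue and circEZH2_005 samples in orange. In both panels circEZH2_005 sample 1 was highest, at 1.67 CPM and 162 FPKM, and vector sample 2, at 0.656 CPM and 63.2 FPKM, was the highest of the vector samples.

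The EphA receptors Epha1 and Epha2 are epithelial, and Epha2 is known as a receptor of injured and migrating epithelium that also signals without its ligand. Epha2 (ENSMUSG00000006445, chromosome 4, 141301240 to 141329384, plus strand) was at 37.6, 41.8 and 40.7 CPM with vector and at 47.7, 80.7 and 63.6 CPM with circEZH2_005. Every circEZH2_005 sample lay above the vector samples, which lay close together, while the circEZH2_005 samples spread widely, with sample 2 highest. The log2 fold change was 0.68 (SE 0.175, interval 0.27 to 1.08), a fold of 1.60, and the adjusted p was 0.0714 by edgeR. Without circEZH2_005 sample 1, the lowest of its group, the value was 0.85 on the log2 scale and edgeR's adjusted p was 0.022, and without any other sample the adjusted p was between 0.0926 and 0.212.

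Epha1 (ENSMUSG00000029859, chromosome 6, 42358487 to 42373268, minus strand) was at 65.1, 60.8 and 62.6 CPM with vector and at 41.2, 71 and 67.4 CPM with circEZH2_005. The circEZH2_005 samples lay on both sides of the vector samples, sample 1 below all of them and samples 2 and 3 above all of them. The log2 fold change was -0.07 (interval -0.51 to 0.37, edgeR adjusted p = 0.866), and it was 0.14 without circEZH2_005 sample 1. Zyx, which encodes a focal adhesion protein and shares 236 exonic bases with Epha1 from the other strand (6.01% of those of Epha1), was also lowest in circEZH2_005 sample 1, with 49.9 CPM there against 64.7 to 89.3 CPM in the other samples. The gene 2010310C07Rik on the other strand also overlaps Epha1. Whether reads of Zyx or 2010310C07Rik were counted for Epha1 was not tested. The summed FPKM of the enterocyte markers in circEZH2_005 samples 1 to 3, 7880, 12500 and 10500, ran in the same order as both Epha1 and Epha2 did. In vector samples 1 to 3 these sums were 8660, 7590 and 7440 FPKM, an order that neither Epha1 nor Epha2 followed.

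Both EphA receptors were also set against each other within each sample. The FPKM of Epha2 divided by that of Epha1 was 0.485, 0.578 and 0.547 with vector and 0.973, 0.955 and 0.793 with circEZH2_005, without overlap. Epha2 took 16.4% ± 1.53 of the summed FPKM of the 6 receptors with vector and 26.0% ± 3.87 with circEZH2_005, again without overlap, and Ephb4 took 34.8% ± 1.93 and 27.1% ± 3.70. These shares need no scaling between samples, and no test was run on them because they join several of the 10 genes.

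Of the ephrin-B ligands, which span the membrane and carry the reverse signal, Efnb1 (ENSMUSG00000031217, chromosome X, 99136130 to 99148991, plus strand) pairs with Ephb2 and Ephb3 in the crypt. Efnb1 was at 75.5, 66.1 and 72.5 CPM with vector and at 66.1, 85.7 and 83.9 CPM with circEZH2_005, with a log2 fold change of 0.14 (interval -0.13 to 0.41, edgeR adjusted p = 0.523). The lowest sample of each group was at the same 66.1 CPM, and a fold above 1.33 or under 0.914 lay outside the interval.

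Efnb2 (ENSMUSG00000001300, chromosome 8, 8617434 to 8661242, minus strand) was at 135, 91.4 and 128 CPM with vector and at 91.4, 101 and 99.9 CPM with circEZH2_005. Vector samples 1 and 3 stood above all others and vector sample 2 stood with the circEZH2_005 samples, and the log2 fold change was -0.28 (SE 0.146, interval -0.62 to 0.06, edgeR adjusted p = 0.304). In FPKM Efnb2 was at 17.9, 12.5 and 17.3 with vector and at 12.4, 12.3 and 12.3 with circEZH2_005. There every circEZH2_005 sample lay below every vector sample, with vector sample 2 just above circEZH2_005 sample 1. Without vector sample 2 the value was -0.43 on the log2 scale and edgeR's adjusted p was 0.0345, and without any other sample the adjusted p was between 0.401 and 0.63. Efnb2 and its receptor Ephb4 kept close to each other, with a ratio of Ephb4 to Efnb2 in FPKM of 1.08 ± 0.119 with vector and 0.986 ± 0.0771 with circEZH2_005, and these ratios overlapped. The genes E230020D15Rik, Gm45074 and Gm45073 overlap Efnb2 on the same strand, and their part in the Efnb2 counts was not tested.

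The ephrin-A ligands are held to the membrane by a lipid anchor, and Efna1 and Efna4 lie with Efna3 on the minus strand of chromosome 3, within 66.3 kb. Efna1 (ENSMUSG00000027954, 89271733 to 89281142), a ligand of Epha2, was at 39.0, 28.9 and 38.0 CPM with vector and at 35.1, 44.2 and 43.5 CPM with circEZH2_005. Vector sample 2 was lowest and the groups overlapped, with a log2 fold change of 0.21 (interval -0.12 to 0.55, edgeR adjusted p = 0.418). Efna4 (ENSMUSG00000028040, 89333390 to 89338028), which binds EphA receptors, was at 10.1, 6.85 and 7.87 CPM with vector and at 5.01, 4.56 and 5.85 CPM with circEZH2_005. All circEZH2_005 samples lay below all vector samples, with a log2 fold change of -0.69 (SE 0.193, interval -1.13 to -0.24, edgeR adjusted p = 0.0864), the lowest value among the 10 genes. The FPKM of Efna4 divided by that of Efna1 in the same sample was 0.295, 0.271 and 0.237 with vector and 0.163, 0.118 and 0.154 with circEZH2_005, lower in every circEZH2_005 sample. Efna3, between them, had a log2 fold change of 0.04 (edgeR adjusted p = 0.954). Adam15, which ends 513 bases upstream of Efna4 on the same strand, had a log2 fold change of 0.32 (edgeR adjusted p = 0.182). The gene 4731419I09Rik on the other strand overlaps Efna4, and its part in the Efna4 counts was not tested.

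**Figure D3:**
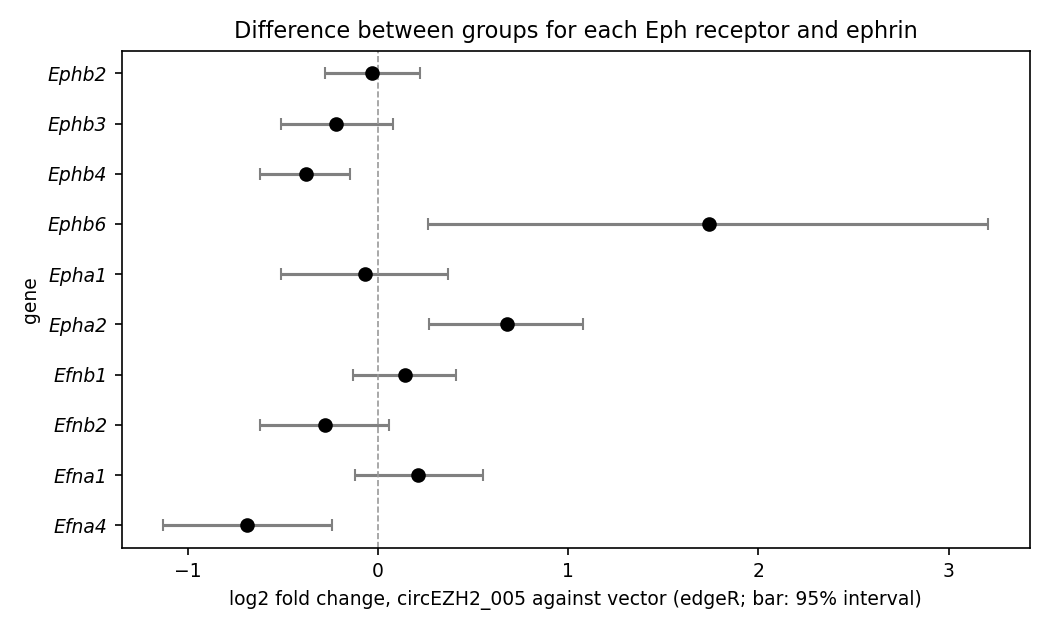
Log2 fold change of circEZH2_005 against vector for each gene from edgeR, with bars for the 95% interval and a dashed line at 0. The intervals of Ephb4 and Efna4 lay below 0 and those of Ephb6 and Epha2 above it, the other 6 crossed it, and none of the 10 genes passed the adjustment over all genes.

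The totals of the receptors and of the ephrins overlapped between the groups. The 6 receptors summed to 48.4 ± 2.25 FPKM with vector and 45.2 ± 3.28 FPKM with circEZH2_005, and the 4 ephrins to 57.6 ± 7.35 and 54.3 ± 2.80 FPKM, with overlap in both. The ratio of ephrins to receptors was 1.3, 1.06 and 1.19 with vector and 1.23, 1.17 and 1.20 with circEZH2_005. Within the receptors the EphB sum was 26.0, 23.4 and 27.9 FPKM with vector and 22.2, 18.0 and 20.7 FPKM with circEZH2_005, lower in every circEZH2_005 sample. Of the EphB receptors only Ephb4 was itself lower in every circEZH2_005 sample in FPKM. Over all genes fitted, the median log2 fold change was -0.07 by limma on log2(FPKM + 1) and 0.00 in edgeR. The EphA sum was 22.4, 22.9 and 22.8 FPKM with vector and 19.3, 29.5 and 26.1 FPKM with circEZH2_005, on both sides of the vector values. Within the ephrins, Efna1 took 30.9% ± 0.855 of the sum with vector and 35.7% ± 0.673 with circEZH2_005, while Efnb2 took 27.5% ± 1.83 and 22.8% ± 1.32 and Efna4 took 8.26% ± 0.787 and 5.17% ± 0.778, each without overlap. The share of Efnb1 overlapped, at 33.4% ± 2.65 and 36.3% ± 1.18.

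**Figure D4:**
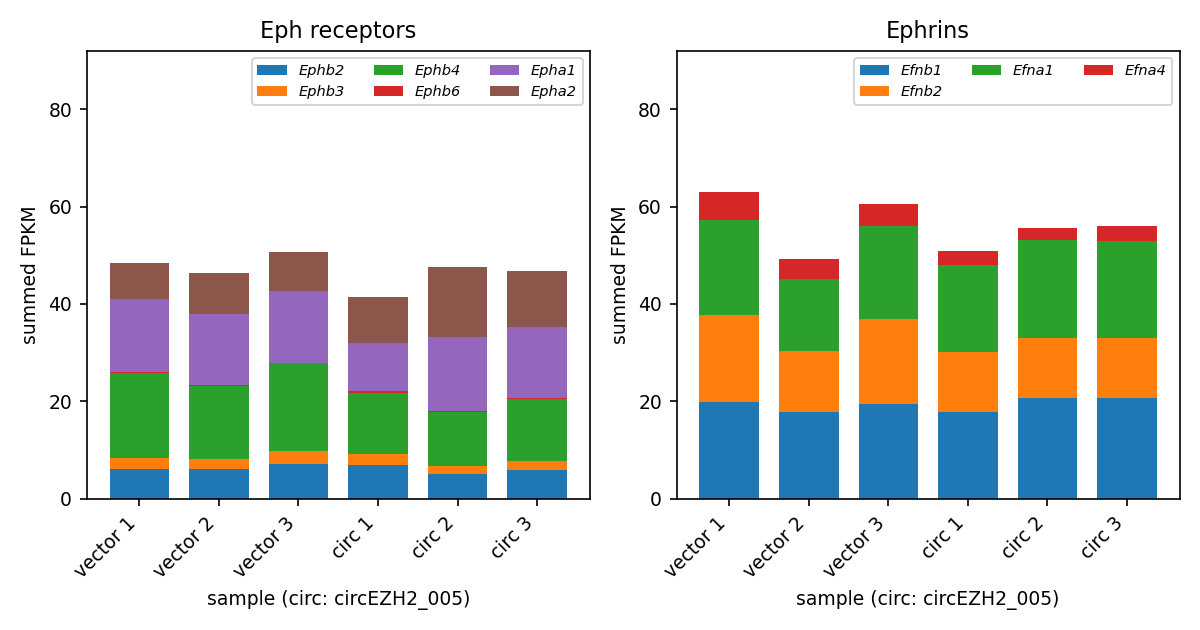
FPKM of the 6 receptors (left) and the 4 ephrins (right) stacked for each sample, from vector samples 1 to 3 to circEZH2_005 samples 1 to 3, with a colour for each gene. The heights overlapped between the groups, from 41.5 to 50.7 FPKM for the receptors and from 49.2 to 63.0 FPKM for the ephrins, while the part of Epha2 was larger and the parts of Ephb4 and Efna4 were smaller in every circEZH2_005 sample.

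Of the other 12 Eph receptors and ephrins of the mouse that were looked up, 10 were listed in the table and 5 had enough counts to be tested. None of these 5 was called in edgeR, and 0 had an unadjusted p-value under 0.05. Epha4 had a log2 fold change of 0.27, Efnb3 of -0.58, Epha7 of -1.74, Efna5 of -0.60 and Efna3 of 0.04, with adjusted p-values between 0.344 and 0.954 by edgeR. Together these 10 other listed genes summed to only 1.22 to 2.06 FPKM in a sample.

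The promoters of the 4 genes with an unadjusted p-value under 0.05 are given here as the letters in front of the genes that lay furthest between the groups. Each run holds the 250 bases before the start of the gene in RefSeq (GRCm38.p6), 5′ to 3′ on the strand of the gene, and capitals mark matches on either strand to a GC box (GGGCGG), an AP-1 site (TGANTCA) or a TCF core (CTTTGA).
Epha2, chr4:141300971-141301220, plus strand: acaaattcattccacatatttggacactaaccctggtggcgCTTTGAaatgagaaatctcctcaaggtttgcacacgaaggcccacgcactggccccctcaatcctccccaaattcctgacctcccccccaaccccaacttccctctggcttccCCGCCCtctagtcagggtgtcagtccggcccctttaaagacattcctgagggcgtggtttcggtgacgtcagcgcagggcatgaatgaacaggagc
Ephb4, chr5:137349859-137350108, plus strand: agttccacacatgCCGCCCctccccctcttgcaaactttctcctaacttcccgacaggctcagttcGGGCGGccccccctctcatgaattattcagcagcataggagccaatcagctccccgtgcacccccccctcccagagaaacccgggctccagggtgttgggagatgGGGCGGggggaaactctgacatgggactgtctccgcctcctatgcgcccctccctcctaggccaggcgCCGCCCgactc
Efna4, chr3:89338029-89338278, minus strand: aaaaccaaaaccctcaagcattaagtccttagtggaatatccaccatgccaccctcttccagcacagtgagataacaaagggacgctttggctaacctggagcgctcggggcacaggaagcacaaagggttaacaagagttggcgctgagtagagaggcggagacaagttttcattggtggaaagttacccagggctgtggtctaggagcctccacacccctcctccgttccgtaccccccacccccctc
Ephb6, chr6:41605261-41605510, plus strand: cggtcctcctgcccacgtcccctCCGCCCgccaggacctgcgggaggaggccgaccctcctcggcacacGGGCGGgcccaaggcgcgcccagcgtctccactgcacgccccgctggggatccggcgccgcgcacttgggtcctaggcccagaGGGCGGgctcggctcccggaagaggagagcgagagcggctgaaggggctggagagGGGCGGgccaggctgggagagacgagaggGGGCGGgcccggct
Epha2 held 1 GC box and 1 TCF core, Ephb4 held 4 GC boxes, Ephb6 held 5 GC boxes and Efna4 held none of the 3 motifs. Over 32817 mouse promoters cut the same way, 32.7% held a GC box, 6.75% an AP-1 site and 13.8% a TCF core. G and C made up 55.6% of the window of Epha2, 64.0% of that of Ephb4, 54.4% of that of Efna4 and 76.8% of that of Ephb6, against a median of 52.4%. A match is a description of the letters only.

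The genes that carry Eph and ephrin signals were looked up as lists. Of the 31 adaptors and effectors of forward signalling tested, such as Src family kinases, 0 were called in edgeR. Over all genes tested, 2.69% were called higher and 0.986% lower. At an unadjusted p-value under 0.05, 7 of the 31 lay above 0 and 3 below 0, beside 23.7% of all genes tested in either direction. The median log2 fold change of this list was 0.07. The largest values in the list were those of Fyn and Sla, both also active in T cells, with log2 fold changes of 1.80 and 1.66 (edgeR adjusted p = 0.058 and 0.0982). Of the 14 partners of reverse signalling, 1 was called, the transcription factor Stat3, which was higher with a log2 fold change of 0.54 (SE 0.115, edgeR adjusted p = 0.0496). At an unadjusted p-value under 0.05 in edgeR, 6 of the 14 partners lay above 0 and 1 below 0. Stat3 was at 105, 112 and 102 CPM with vector and at 135, 179 and 150 CPM with circEZH2_005, without overlap. The nearest other value was that of Ptpn13, a phosphatase that binds ephrin-B, with a log2 fold change of 2.04 (edgeR adjusted p = 0.0504) at 0.0483 to 0.134 FPKM with vector and 0.206 to 0.526 FPKM with circEZH2_005. Of the 11 proteases that cut Ephs and ephrins, 0 were called. At an unadjusted p-value under 0.05 in edgeR, 1 of the 11 lay above 0 and 3 below 0. Among the 11 proteases Adam10, a sheddase of ephrins, had a log2 fold change of 0.02 and Mmp7, a Paneth cell protease, one of -0.92 (edgeR adjusted p = 0.889 and 0.0692).

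Since EphB receptors are Wnt targets in the crypt, other Wnt targets were set beside them. Of 18 tested, 1 was called lower and 1 higher, with a median log2 fold change of -0.18. At an unadjusted p-value under 0.05 in edgeR, 6 of the 18 lay below 0 and 1 above 0, beside 23.7% of all genes tested in either direction. In 7 of the 18 every circEZH2_005 sample lay below every vector sample, beside 14.2% of all genes tested. In 1 every circEZH2_005 sample lay above, beside 16.4%. Lgr5 fell by 0.88 on the log2 scale (edgeR adjusted p = 0.0434), from 1.43, 1.10 and 1.65 FPKM to 0.771, 0.735 and 0.632 FPKM. The cyclin gene Ccnd1 rose by 0.56 (edgeR adjusted p = 0.0412), from 146, 189 and 160 CPM to 248, 231 and 250 CPM. Axin2, a feedback inhibitor of the pathway, had a value of 0.31 and Cd44 one of 0.05 (edgeR adjusted p = 0.219 and 0.875). The Wnt targets did not all share one direction, with 11 values below 0 and 7 above. With the replicate number as a block, with limma on FPKM or with no filter on low counts, 0 of Stat3, Lgr5 and Ccnd1 passed the adjustment. The same held without vector sample 1 or 3 and without circEZH2_005 sample 2 or 3. Stat3 alone of these genes was also lost with median-of-ratios or upper quartile scaling, and Lgr5 and Ccnd1 were also lost without circEZH2_005 sample 1. Among the 10 stem cell markers, 4 were called lower and 0 higher, beside 0.986% and 2.69% of all genes tested. Their median log2 fold change was -0.63. Lgr5, Ascl2, Axin2, Slc12a2, Lrig1 and Tnfrsf19 are in both this list and that of the Wnt targets. The summed FPKM of the stem cell markers was 531 to 817 with vector and 334 to 507 with circEZH2_005. Most of it was Olfm4, at 445, 732 and 473 FPKM with vector and 435, 282 and 448 FPKM with circEZH2_005. Olfm4 overlapped between the groups (edgeR adjusted p = 0.314). The Paneth cell markers had 0 calls and a median of -0.55, and the enterocyte markers had 1 call, the lipid carrier gene Apoa4, higher, and a median of 0.45. Of the other markers, 1 goblet cell gene (Clca1) and 1 endothelial gene (Pecam1, also made by leukocytes) were called higher and 1 enteroendocrine gene (Neurog3) lower. The tuft, B cell, myeloid, and fibroblast and muscle markers had 0 calls. The part of these cell types in the values of the Eph receptors and ephrins was not tested.

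For the receptor and the ephrin with the highest mean FPKM over the 6 samples, Ephb4 and Efnb1, the most similar genes were sought among the 11601 genes whose mean reached 1 FPKM. Likeness was measured as the root mean square difference of log2 CPM over the 6 samples after each gene's own mean was taken off. Lrrc58, Gstt2 and Pacc1 were closest to Ephb4, with differences of 0.0201, 0.0232 and 0.0254, where the deviations of Ephb4 itself had a root mean square of 0.218. Zswim5, Klhl18 and Tmem238l were closest to Efnb1, with differences of 0.0294, 0.0301 and 0.0323, where that of Efnb1 was 0.148. None of these 6 genes was called in edgeR (adjusted p between 0.0738 and 0.537).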

How the data were processed

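RNA was sequenced from 3 vector and 3 circEZH2_005 samples. Per the labels, the submitters' processing notes name cutadapt 1.9, HISAT2 2.0.4, StringTie 1.3.4d, DESeq2 and the build mm10. The counting step and its use of strand are not given in the sources used here. The deposited table held whole-number counts and FPKM values computed by the authors for 28752 genes, beside 15 columns of annotation. Control columns carry the name NC there, and vector is the one control group of the labels, so NC was read as vector.

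Counts were filtered (filterByExpr), scaled with TMM and tested in edgeR 4.0.16 (R 4.3.3; quasi-likelihood F-test) over 18348 genes, with Benjamini-Hochberg adjustment at 0.05. Alternatives were median-of-ratios and upper quartile scaling, no filter, DESeq2 1.42.0, limma 3.58.1 on log2(FPKM + 1) and log2(FPKM + 0.1) for genes whose mean reached 0.5 FPKM, a replicate block and leaving out each sample. All 10 genes were described; of the listed pathway genes, those called, and those the text sets beside a result, were named, the latter after their values were seen. The members and lists were chosen with earlier results of these data known. Totals of 71506487 to 79919893 counts per sample give counting precision only. Of the gene IDs, 28678 were found in GENCODE M21, 28527 of them with the same start.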

Additional observations from a re-analysis of the deposited data

How the results depend on the processing

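Of 128 log2 fold changes of the 10 genes under the alternatives, 125 kept their direction. Ephb2 was 0.04 without vector sample 3 and 0.05 without circEZH2_005 sample 2, and Epha1 was 0.14 without circEZH2_005 sample 1; the cause was not tested. Without 1 sample at a time Ephb2 ran from -0.1 to 0.05 and Epha1 from -0.21 to 0.14. DESeq2 called 1 of the 10 higher and 2 lower, with adjusted p of 0.0038 for Epha2, 0.0233 for Ephb4 and 0.0165 for Efna4. Leaving out 1 sample at a time called 0 to 1 higher and 0 to 2 lower; without vector sample 2 Ephb6 (higher), Ephb4 and Efnb2 (lower) were called, and without circEZH2_005 sample 1 Epha2 was. By the fold rule, 0 were higher under either limma fit, where Ephb6 was below the FPKM minimum, and 0 to 1 without 1 sample.

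Over all genes, against 493 higher and 181 lower, the counts were 132 and 37 with no filter, 1574 and 698 with DESeq2, and 310 and 292 with limma on log2(FPKM + 1). With log2(FPKM + 0.1) 168 were higher. Without 1 sample they were 26 to 1098 higher and 2 to 334 lower, lowest without vector sample 1 and highest without vector sample 2. Same-numbered samples did not deviate together (r of -0.14, -0.02 and 0.04), so the numbers were not taken as pairs. With the replicate block the counts were 241 and 36, and the block called 0 of the 10 genes, as the fit without it did.

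Of the pathway genes, against 2 higher and 1 lower, 1 and 2 were called with median-of-ratios or upper quartile scaling and 7 and 7 with DESeq2. With no filter, either limma fit or the replicate block, 0 and 0 were called. Without 1 sample, 0 to 5 were higher and 0 to 4 lower. Causes of these changes were not tested. With 3 samples a group and 12 to 133 counts, Ephb6 was the least precise of the 10 genes.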
